A study of Rattus norvegicus with 24 samples.

Results

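Among the irradiated mammary carcinomas of this series, 3 had necrosis recorded in the study's tumor table, and they are compared here with the irradiated carcinomas for which that table records none. The necrotic tumors were tumors 1 and 2 of the rats irradiated at 3 weeks of age (IR-3W) and tumor 3 of the rats irradiated at 7 weeks (IR-7W). They were 3 of 14 irradiated tumors and of 24 tissues in all, and the other 11 irradiated tumors were IR-3W tumors 3 to 7 and IR-7W tumors 1, 2 and 4 to 7. The table leaves the entry of those 11 blank, which may mean that necrosis was absent or was not looked for. The 7 spontaneous carcinomas, also blank, and the 3 normal mammary glands serve as reference. All animals were female Sprague-Dawley rats given a corn oil diet as adults, irradiated rats had received 2 Gy of whole-body gamma rays, and IR-3W tumors 6 and 7 came from 1 rat, as did IR-7W tumors 1 and 2. Age at irradiation was shared unequally, with 2 of 7 IR-3W tumors and 1 of 7 IR-7W tumors necrotic. Estrogen receptor (ER) status also differed in its shares, with 1 of the 3 necrotic tumors and 8 of the 11 others ER positive.

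CpG islands are short stretches of DNA rich in CpG dinucleotides, many of them at gene promoters. They are mostly unmethylated in normal cells, and dense methylation at a promoter goes with silencing of its gene. Necrosis is the death of tissue within a tumor, often where growth has outrun the blood supply, and a necrotic tumor yields DNA from dying cells, inflammatory cells and surviving carcinoma cells together.

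Methylation was measured on 1 array per tissue, whose Cy5 channel held DNA captured by a methyl-CpG binding protein and whose Cy3 channel held total DNA of that tissue. The value of a probe is the log2 ratio of Cy5 over Cy3 with the median of each array set to 0, so that a higher value stands for a larger captured share relative to the rest of that array. Of 93024 probes placed on the rn4 assembly, 89403 lay on autosomes, and those at most 1000 bp apart were joined into 13856 runs, 12724 of which held 3 or more probes. A run stands roughly for 1 CpG island. In bulk tissue a shift in the mix of cells and a change of methylation within a cell type cannot be told apart. The files pair no probe with a gene, and the annotation at hand is of another assembly, so runs are given by position, genes are not named, and the markers of carcinoma cells and of inflammatory cells could not be read from these arrays.

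The 3 necrotic tumors had no methylation profile in common that the arrays could separate from the other irradiated tumors. Of 89329 autosomal probes measured on all 14 arrays, 0 differed at an adjusted p under 0.05 (0% of the probes tested, limma with Benjamini-Hochberg adjustment), and the smallest adjusted p was 0.0738. Before adjustment 5348 probes had a p under 0.05, which is 5.99% of those tested, 2949 of them with the higher mean in the necrotic tumors and 2399 with the lower. A p under 0.001 was reached by 119 probes, or 0.133%, 47 higher and 72 lower. Among the 13856 runs, 0 passed the adjusted threshold (0%, smallest adjusted p 0.192 in limma) and 797, or 5.75%, had an unadjusted p under 0.05. With the tumors of 1 rat averaged, which leaves 9 others, 1 run and 0 probes passed (smallest adjusted p 0.0349 and 0.427 in limma). In simulated data of the same size, the spread of each probe was kept but probes were drawn independently. The test recovered 73% of probes and 100% of runs changed by 2 log2 units there, and 20% of probes and 94% of runs changed by 1 log2 unit. A change of 1 log2 unit shared by a few single probes could therefore go unseen here. Averaging independent probes narrows the spread of run means, so the shares for runs do not hold where neighbouring probes vary together. In the data, a run of 3 probes on chromosome 6 differed by 1.53 ± 0.33 (SE) at an adjusted p of 0.683 in limma. Changes of runs could thus go unseen as well.

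Which tumors entered decided these counts. Without IR-3W tumor 2, 35 probes passed the adjusted threshold, 3 higher and 32 lower, and without IR-7W tumor 3, 15 probes and 2 runs passed. Without IR-3W tumor 6, which is not necrotic, 1 probe and 1 run passed, and without IR-7W tumor 6, 0 probes and 1 run. With each of the other 10 tumors left out, 0 probes and 0 runs passed. The counts at an unadjusted p under 0.05 moved as well, to 15492 probes and 2704 runs without IR-3W tumor 2 and to 11617 probes and 1945 runs without IR-7W tumor 3, while with any other tumor left out they were 4547 to 6612 probes and 665 to 959 runs. Each necrotic tumor shared a slide with a single irradiated tumor that was not necrotic: IR-3W tumor 1 with IR-3W tumor 6, IR-3W tumor 2 with IR-7W tumor 2, and IR-7W tumor 3 with IR-3W tumor 7. With slide as a block the smallest adjusted p of a probe was 0.943 in limma, with 0 probes called, and 4046 probes and 514 runs had an unadjusted p under 0.05. That estimate rests on the necrotic tumors and their slide mates alone, which limits its power.

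IR-3W tumor 1 was stretched as a whole. Its autosomal median absolute deviation, the typical distance of a probe from the median of the array, was 0.873 log2 units, that of IR-3W tumor 2 was 0.553 and that of IR-7W tumor 3 was 0.713. The other irradiated tumors had 0.575 at the lowest, 0.679 at the median and 0.819 at the highest. The necrotic tumors thus held both the widest and the narrowest profile of the 14, and their mean differed from that of the others by 0.037 (two-sided exact permutation test over the 364 choices of 3 of 14 arrays, p = 0.580). At the 95th percentile of probes the log2 ratio was 5.82 in IR-3W tumor 1, 3.36 in IR-3W tumor 2 and 3.43 in IR-7W tumor 3, and in the other tumors it ran from 3.11 through a median of 3.63 to 3.93. One necrotic tumor stood above all others and both remaining ones lay inside their range (exact permutation p = 0.179). With each array scaled to the same median absolute deviation, IR-3W tumor 1 had 4.56, beside 4.39 in IR-3W tumor 7, the highest of the others.

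**Figure D1:**
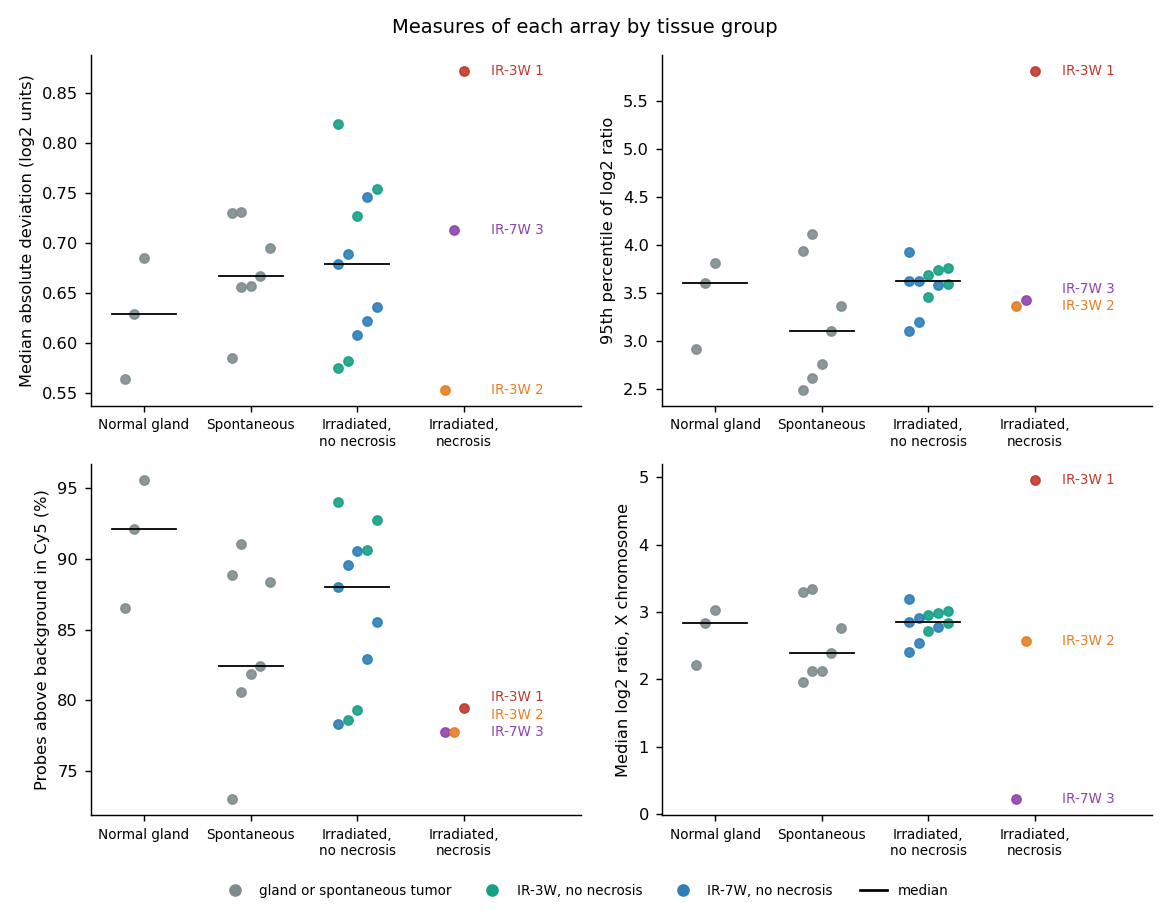
Median absolute deviation, 95th percentile of the log2 ratio, percent of probes well above background in Cy5 and median log2 ratio of the X chromosome, 1 point per tissue in 4 groups, with the median of the groups that are not necrotic as a line. IR-3W tumor 1 lies highest in the upper panels (0.873 and 5.82), the 3 necrotic tumors lie between 77.8% and 79.4% in Cy5, and IR-7W tumor 3 has an X-chromosome median of 0.22.

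The stretch of IR-3W tumor 1 was seen at islands that normal glands methylate most. When autosomal probes were ranked by their mean in the 3 normal glands, the highest tertile had a mean log2 ratio of 2.79 in IR-3W tumor 1, 1.54 in IR-3W tumor 2 and 1.66 in IR-7W tumor 3, against 1.59, 1.74 and 1.83 (lowest, median and highest) in the other tumors. On scaled arrays IR-3W tumor 1 had 2.18 in the highest tertile, beside 2.16 in IR-3W tumor 6, the highest of the others. In the lowest tertile as measured, IR-3W tumor 1 had the lowest mean of the 14, with -0.87, and IR-3W tumor 2 the highest, with -0.40. IR-7W tumor 3 had -0.63, and the other tumors ran from -0.76 through -0.61 to -0.50. As measured, IR-3W tumors 1 and 2 therefore left the common range in opposite directions at weakly methylated islands, and the difference of the means was 0.00 (exact permutation p = 1). On scaled arrays IR-3W tumor 1 had -0.68, inside the range of the others, -0.78 to -0.55, and IR-3W tumor 2 had -0.49, above it. The middle tertile differed by -0.02 (exact permutation p = 0.582).

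Probes with an unadjusted p under 0.05 made up 6.13% of the highest tertile and 6.92% of the lowest, beside 5.99% of all autosomal probes, and on scaled arrays 3.14% and 6.45% beside 4.61%. In the highest tertile, 1525 had the higher mean in the necrotic tumors and 300 the lower, while in the lowest tertile 789 were higher and 1273 lower. With the arrays scaled to the same median absolute deviation, the highest tertile held 561 higher and 373 lower and the lowest tertile 1020 higher and 900 lower. The surplus of higher probes among heavily methylated islands thus shrank with scaling, and that of lower probes among weakly methylated islands turned. The median difference over all autosomal probes was 0.03 log2 units before scaling and 0.02 after it, and its sign rested on IR-3W tumor 1, without which it was -0.06 and -0.03. It was also -0.02 with normexp background correction, -0.02 with quantile normalization and -0.002 with log2 tumor weight as a term. In ER positive tumors alone, where IR-7W tumor 3 was the only necrotic tumor, it was -0.09, and on scaled arrays with slide as a block -0.04. On scaled arrays 1 probe passed the adjusted threshold and 0 runs did, with a smallest adjusted p of 0.0626 for a run (limma), and with slide as a block as well 0 probes passed.

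Single tumors departed from the rest far more than the necrotic tumors did as a group. IR-3W tumor 1 held the highest value of all 14 tumors by more than 1 log2 unit at 1627 of the 12724 runs of 3 or more probes, IR-3W tumor 2 at 9 and IR-7W tumor 3 at 3. Among the 11 others that count ran from 0 through a median of 1 to 40, the last in IR-7W tumor 6. On scaled arrays the counts were 64, 37 and 3 in the necrotic tumors and 0 to 86 in the others, again with IR-7W tumor 6 at the top. No necrotic tumor lay below all the others by that distance at more than 11 runs.

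Correlations between tumors, taken across autosomal probes as a description, gave the same picture. IR-3W tumors 1 and 2 correlated at 0.854, IR-3W tumor 1 and IR-7W tumor 3 at 0.891, and IR-3W tumor 2 and IR-7W tumor 3 at 0.858. The 33 pairs of a necrotic with another irradiated tumor had 0.847 to 0.922 with a median of 0.883, and the 55 pairs of tumors that were not necrotic had 0.821 to 0.950 with a median of 0.900. The 3 necrotic tumors were thus not more like each other than like the rest. The closest partner of IR-3W tumor 1 was the tumor on its own slide, IR-3W tumor 6, at 0.922. After the mean of the 14 tumors was taken off each probe, the necrotic pairs had -0.395, -0.153 and -0.004, and on scaled arrays -0.147, -0.172 and -0.113. The median of these deviations was -0.153 over the necrotic pairs, -0.063 over pairs with 1 necrotic tumor and -0.072 over pairs with none, and deviations from a shared mean lie somewhat below 0 by construction. The deviations of the 3 necrotic tumors correlated with those of their slide mates at -0.018, 0.028 and 0.308 as measured and at 0.245, 0.053 and 0.210 on scaled arrays. Probes share array, slide and base composition, so these values count no independent observations.

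**Figure D2:**
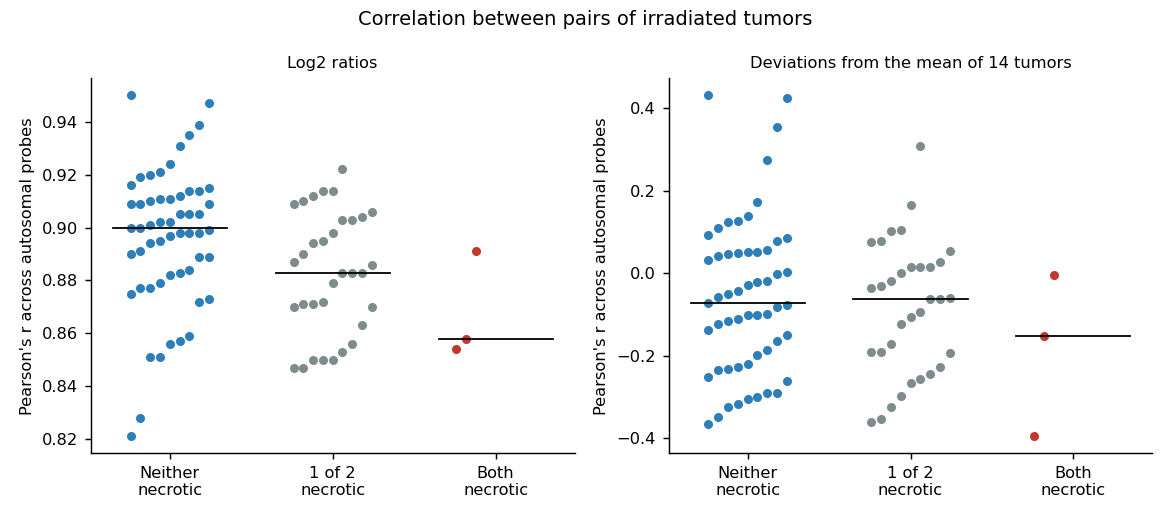
Pearson's r across autosomal probes for each pair of the 14 irradiated tumors, for log2 ratios (left) and for deviations from the mean of the 14 tumors (right), with each pair as a point and the median as a line. The 3 pairs of necrotic tumors lie at 0.854 to 0.891 on the left, below the median of 0.900 of pairs without a necrotic tumor, and their median on the right is -0.153, beside -0.063 and -0.072 for pairs with 1 and with no necrotic tumor.

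At islands where spontaneous carcinomas differed from normal glands, the 3 necrotic tumors lay among the other irradiated tumors. Spontaneous carcinomas entered neither group: 4139 autosomal probes were higher in every spontaneous tumor than in every gland with a difference of the means of at least 1 log2 unit (gained), and 3105 were lower by the same rule (lost). At gained probes the mean log2 ratio was 0.72 in IR-3W tumor 1, 1.04 in IR-3W tumor 2 and 0.85 in IR-7W tumor 3. The other irradiated tumors had 0.32 at the lowest, 0.83 at the median and 1.28 at the highest, the glands -0.48 to -0.19. All necrotic tumors lay inside the range of the other tumors, and the difference of the means was -0.01 (exact permutation p = 0.926). The same 3 glands chose these probes, so any other tissue tends to lie away from them here and nothing is read from that distance. At lost probes the values were -0.07, -0.20 and -0.16 in the same order, the other tumors ran from -0.46 through -0.28 to 0.15, and the glands from 0.58 to 0.90. All 3 glands were scanned on 1 day, so tissue and scan day are nearly the same contrast in the choice of these probes. The difference of 0.07 was again small against the spread between the tumors (exact permutation p = 0.599). The slope of each tumor's departure from the glands on the mean departure of the spontaneous tumors was 0.511, 0.887 and 0.855 in the necrotic tumors and 0.556 to 1.03 in the others (exact permutation p = 0.626). The 3 glands themselves had slopes of -0.111 to 0.126, and both departures subtract the same 3 glands, so nothing is read from a slope being above 0. IR-3W tumor 1 had the lowest slope of the 14 as measured. Next came IR-3W tumor 6 on the same slide, with 0.556, and IR-3W tumor 7 on another slide, with 0.568. On scaled arrays IR-3W tumor 6 was lowest, with 0.507, beside 0.516 in IR-3W tumor 1.

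**Figure D3:**
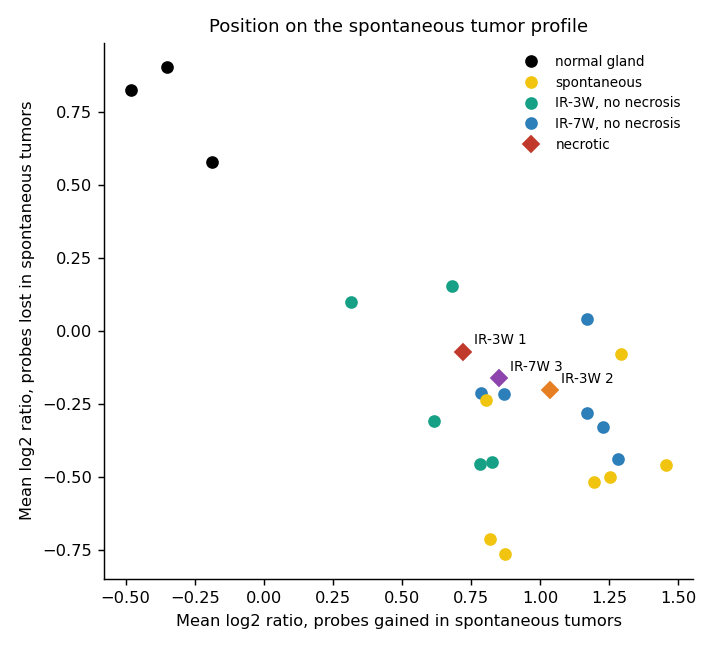
Mean log2 ratio of each tissue at the 4139 probes that spontaneous tumors gained (horizontal axis) and the 3105 that they lost (vertical axis) against normal glands, with the 3 necrotic tumors as diamonds. The necrotic tumors sit among the other irradiated tumors, at 0.72 to 1.04 and -0.20 to -0.07, and the glands, which helped choose the probes, lie in the upper left.

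The array measure nearest to a shared difference was a weak Cy5 signal in the 3 necrotic tumors. The percent of probes well above background in Cy5, the captured DNA, was 79.4% in IR-3W tumor 1, 77.8% in IR-3W tumor 2 and 77.8% in IR-7W tumor 3. In the other irradiated tumors it was 78.4% at the lowest, 88.0% at the median and 94.0% at the highest, so the groups overlapped at the lower end. The difference of the means was -8.08 percentage points (exact permutation p = 0.0385, adjusted p = 0.423 over 11 measures), so it did not hold after adjustment. Within the 3 slides, necrotic minus other was -14.6, -0.589 and -1.62 percentage points, lower in 3 of 3 pairs. Spontaneous tumor 3 had a share below those of all irradiated tumors, at 73.0%. In Cy3, the unenriched DNA, the shares were 97.6%, 90.7% and 93.5% in the necrotic tumors against 90.7% to 99.1% in the others (exact permutation p = 0.398). The spread of the Cy3 signal between neighbouring probes was 0.647, 0.935 and 0.989 log2 units against 0.616 to 1.02 (exact permutation p = 0.349). Of the 11 array measures, 0 passed an adjusted p of 0.05, and the one in Cy5 was the only one with an unadjusted p under 0.05.

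Copy number and the X chromosome separated single tumors only. The standard deviation (SD) of the Cy3 chromosome medians, taken against the glands as a measure of large gains and losses of DNA, was 0.017, 0.040 and 0.023 in the necrotic tumors and 0.016 to 0.081 in the others (exact permutation p = 0.841). The largest Cy3 departure of a necrotic tumor, 0.20 on chromosome 4 in IR-3W tumor 2, lay inside the range of the other tumors, -0.07 to 0.23. The X-chromosome median log2 ratio was 4.96 in IR-3W tumor 1, 2.56 in IR-3W tumor 2 and 0.22 in IR-7W tumor 3, and 2.42 to 3.20 with a median of 2.85 in the other tumors. One necrotic tumor was above them all, one below them all and one among them, and the difference of the means was -0.26 (exact permutation p = 0.426). On autosomes taken 1 at a time the mean log2 ratio of the necrotic tumors was higher on 20 of 20 chromosomes, by 0.05 to 0.14, with 0 below an adjusted p of 0.05 (exact permutation, smallest p 0.0852, adjusted 0.252). On scaled arrays all 20 differences were smaller, between 0.03 and 0.09. Without IR-3W tumor 1 the mean was higher on 3 of the 20 chromosomes, with differences of -0.06 to 0.01, so as measured the common direction rested on that tumor. On scaled arrays the mean was higher on 15 without IR-3W tumor 1, with -0.02 to 0.03, and on 18 without IR-3W tumor 2, with -0.01 to 0.08.

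Whether necrosis went with a different methylation change in the age groups was tested with an interaction term. Of 89329 probes 0 passed (smallest adjusted p 0.0838, limma) and 5842 had an unadjusted p under 0.05, with a lone necrotic IR-7W tumor assumed to vary like the others. Without IR-3W tumor 2, 10480 probes passed, with IR-3W tumor 1 as the lone necrotic tumor of its age, and without IR-3W tumor 1, 0 passed. On scaled arrays 0 passed with all tumors.

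The runs that come nearest to a shared pattern are those whose values did not overlap between the 3 necrotic and the 11 other tumors, both as measured and on scaled arrays. There were 11 such runs of 3 or more probes with higher values in the necrotic tumors, 0.0865% of 12724, and 19 with lower values, 0.149%. The 10 with the smallest p in each direction are described here by rule, and since separation chose them it is not evidence of a difference. Their differences were 0.27 to 0.91 log2 units in the runs with higher values and 0.28 to 1.07 in those with lower values. None passed the adjusted threshold as measured (adjusted p 0.192 to 0.683) or on scaled arrays (adjusted p 0.0626 to 0.913, limma).

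The run with the smallest p was of 8 probes at chr4:85659750-85660230. Its mean log2 ratio was -0.90 in IR-3W tumor 1, -0.30 in IR-3W tumor 2 and -0.62 in IR-7W tumor 3. In the other irradiated tumors it was 0.07 at the lowest, 0.44 at the median and 0.97 at the highest, which leaves a gap of 0.37 between the groups. The difference was -1.07 ± 0.17 (standard error, SE; adjusted p = 0.192 in limma with n = 3 and 11), and -1.02 on scaled arrays (adjusted p = 0.0626). The gap was the widest of the 20 runs. All 8 probes had the lower mean in the necrotic tumors, 6 of them with an unadjusted p under 0.05. The difference lay in the captured DNA, with -1.09 in Cy5 and -0.05 in Cy3. The normal glands had -0.50 to -0.02, with IR-3W tumor 2 inside their range, and the spontaneous tumors -0.26 to 0.83. With slide as a block the difference was -0.90 ± 0.24 (SE, adjusted p = 0.925 in limma).

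At chr1:120539238-120539502, a run of 4 probes, the necrotic tumors had -0.95, -0.82 and -0.75 in the order used above, and the others -0.60, -0.12 and 0.53 at the lowest, median and highest. The groups were 0.15 apart, and all 7 spontaneous tumors, at -0.32 to 0.48, lay above the necrotic ones. At chr8:75954085-75954881, a run of 5 probes, the values were -1.02, -0.80 and -0.80 against -0.60, -0.31 and -0.11. Here the spontaneous tumors spread from -1.08 to -0.16 and reached below the necrotic tumors. At chr17:77945220-77945392, a run of 3 probes, they were -1.19, -0.86 and -0.91 against -0.74, -0.58 and -0.51. The glands lay closely together there at -0.60 to -0.57, and the spontaneous tumors, at -1.14 to -0.34, reached as low as the necrotic tumors.

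At chr3:10803405-10804245, a run of 4 probes, the necrotic tumors had -1.04, -0.92 and -0.85 against -0.82, -0.39 and -0.05, and the glands -0.35 to -0.16. At chr4:105513564-105513905, also of 4 probes, they had -0.65, -0.64 and -0.53 against -0.41, -0.21 and 0.14, and the glands -0.04 to 0.02. In both runs all glands and all spontaneous tumors lay above the necrotic tumors. The remaining runs with lower values were at chr5:165012156-165012711, chr2:53900899-53901419, chr1:186064203-186064503 and chr10:86747812-86748381, with differences of -0.34, -0.28, -0.44 and -0.34 and gaps between the groups of 0.01 to 0.11. Over the 10 runs with lower values, the Cy5 difference was -1.09 to -0.23 and the Cy3 difference -0.16 to 0.05, so the captured DNA carried them.

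Among the runs with higher values, the one with the smallest p held 3 probes at chr2:140202648-140203025. Its mean log2 ratio was 0.52 in IR-3W tumor 1, 1.42 in IR-3W tumor 2 and 0.51 in IR-7W tumor 3, and -0.75, -0.05 and 0.35 at the lowest, median and highest in the others. The difference was 0.91 ± 0.22 (SE, adjusted p = 0.683 in limma with n = 3 and 11), with IR-3W tumor 2 far above the other necrotic tumors. Without IR-3W tumor 2 it was 0.61. Cy5 differed by 0.46 there and Cy3 by -0.48, so the unenriched DNA made up about as much of the ratio as the captured DNA.

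A run of 9 probes at chr19:25129304-25130218 had 0.27, 0.10 and 0.12 in the necrotic tumors and -0.36, -0.18 and -0.03 in the others, with glands at -0.84 to -0.29. A run of 5 probes at chr9:37068732-37069025 had 0.93, 0.60 and 0.55 against -0.12, 0.19 and 0.53, and one of 5 probes at chr5:105659486-105660063 had 0.38, 0.37 and 0.59 against -0.60, -0.17 and 0.25. In these runs the glands were lower than the necrotic tumors throughout. With only probes well above background in both channels on all 14 arrays, the difference at chr5:105659486-105660063 was -0.02, with the sign turned. At chr3:106000479-106000790, a run of 4 probes, the order was different: the necrotic tumors had 0.01, -0.08 and -0.01, the other irradiated tumors -0.85 to -0.08, the spontaneous tumors -0.85 to -0.18 and the glands 0.01 to 0.50. Here all 21 tumors lay below the lowest gland, and the lowest necrotic tumor was at nearly the same value as IR-3W tumor 6, the highest of the others.

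The other runs with higher values were at chr8:47211199-47212211, chr7:11325299-11325818, chr4:67988089-67988969, chr1:208034737-208035530 and chr3:106658224-106658962, with differences of 0.54, 0.27, 0.30, 0.45 and 0.31 and gaps of 0.00 to 0.13. At chr1:208034737-208035530 the difference was -0.07, with the sign turned, when only probes well above background in both channels on all 14 arrays entered. In all 10 runs with higher values the Cy3 mean was lower in the necrotic tumors, with differences of -0.48 to -0.03, although the groups did not separate in Cy3 at any of them. The Cy5 differences of these runs were -0.03 to 0.46. The lowest was at chr3:106658224-106658962, where Cy3 differed by -0.40, so the captured DNA was not higher there. Over all 12724 runs of 3 or more probes 70.5% had a lower Cy3 mean in the necrotic tumors, with a median difference of -0.05. The median Cy3 difference was -0.28 in the 10 runs with higher values and -0.05 in the 10 with lower values. The part of the unenriched DNA in the higher ratios was not tested.

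**Figure D4:**
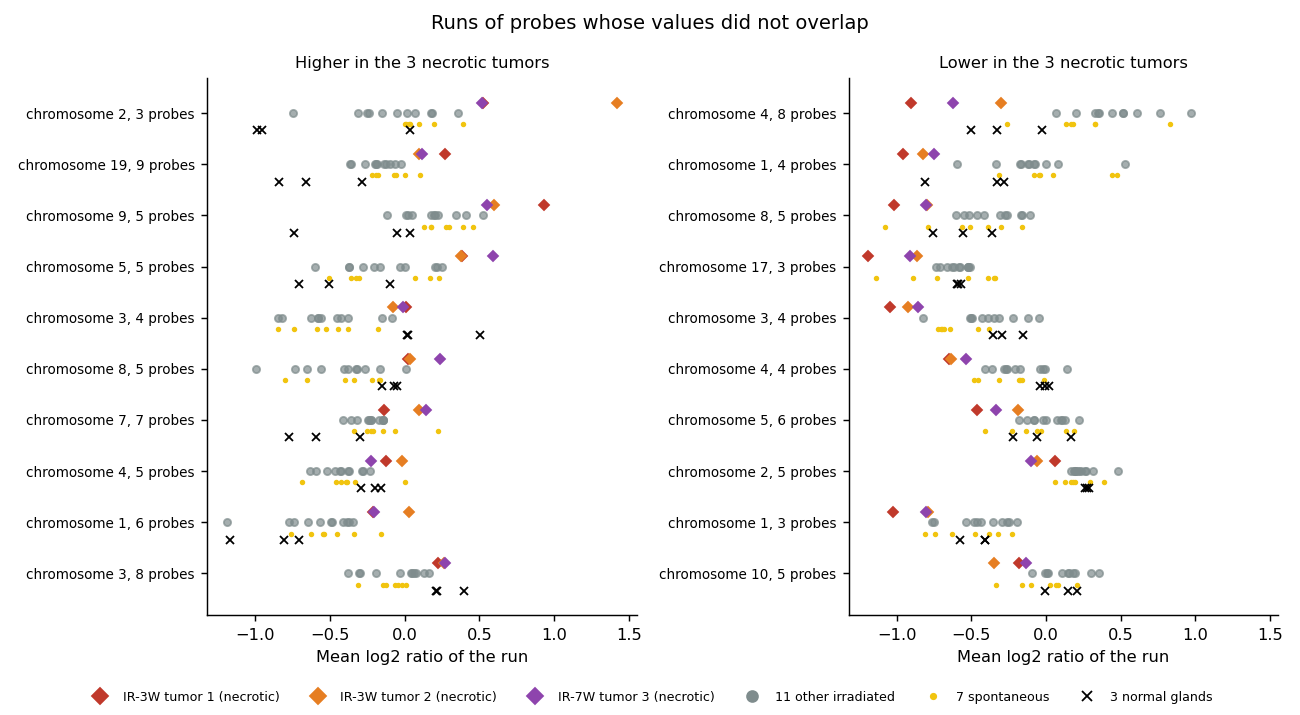
Mean log2 ratio of each of the 20 runs whose values did not overlap, 10 higher (left) and 10 lower (right) in the necrotic tumors, in order of p from the top. Diamonds are the 3 necrotic tumors, grey circles the 11 other irradiated tumors, yellow points the 7 spontaneous tumors and crosses the 3 normal glands, and the widest gap, 0.37, is at the run of 8 probes on chromosome 4.

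The rule puts the necrotic tumors at one end of each run, so any other tissue tends to lie on the side of the remaining tumors, and nothing is read from where spontaneous tumors and glands lay. Every probe had its mean difference in the direction of its run in 3 of the 10 runs with higher values and in 7 of the 10 with lower values. With slide as a block, all 20 differences kept their sign, with an adjusted p of 0.925 in limma, and 5 shrank by over 1.5 times. Those were chr3:106000479-106000790 (0.48 to 0.21), chr5:105659486-105660063 (0.57 to 0.35), chr1:208034737-208035530 (0.45 to 0.27), chr3:106658224-106658962 (0.31 to 0.19) and chr1:120539238-120539502 (-0.75 to -0.47). Others grew, namely chr3:10803405-10804245 (-0.56 to -0.71), chr1:186064203-186064503 (-0.44 to -0.58), chr8:75954085-75954881 (-0.52 to -0.58), chr17:77945220-77945392 (-0.39 to -0.45), chr4:105513564-105513905 (-0.44 to -0.50) and chr9:37068732-37069025 (0.51 to 0.54).

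The probe with the smallest p of all, A_45_P19667432 at chr5:137609611-137609670, was the one that passed on scaled arrays. Its log2 ratio was 3.33 in IR-3W tumor 1, 1.79 in IR-3W tumor 2 and 2.63 in IR-7W tumor 3, and -0.62 at the lowest, 0.15 at the median and 0.80 at the highest in the other irradiated tumors. The glands had -0.98 to 1.28 and the spontaneous tumors -0.73 to 0.37. The difference was 2.50 ± 0.31 (SE, adjusted p = 0.0738) as measured and 2.37 ± 0.25 (SE, adjusted p = 0.00917) on scaled arrays, in limma. With slide as a block as well, a setting chosen after seeing the data, 0 probes passed on scaled arrays (smallest adjusted p 0.897 in limma). The neighbouring probe A_45_P04796726, which overlaps it, had 3.66, -0.98 and 0.60 in the necrotic tumors and -1.38 to 0.74 in the others. This neighbour was well above background in Cy3 on 7 of the 14 arrays, and among the necrotic tumors only in IR-3W tumor 1. Nothing is therefore read from its ratios in IR-3W tumor 2 and IR-7W tumor 3. The Cy3 difference was -1.45 at the first probe and -0.35 at the second. The first probe was well above background in Cy3 on 7 of the 14 arrays and in Cy5 on 3 of them, and among the necrotic tumors in either channel only in IR-3W tumor 1, so in IR-3W tumor 2 and IR-7W tumor 3 its ratio was between signals not well above background. Among the 78963 probes well above background in Cy3 on all 14 arrays, which leave it out, 0 passed (smallest adjusted p 0.686 in limma). The mean of all 7 probes of the run, chr5:137609611-137610366, was 3.90, 0.76 and 1.37 against -0.04 to 1.22, with a difference of 1.21 ± 0.46 (SE, adjusted p = 0.683 in limma). IR-3W tumor 1 lay far above all the others there, IR-7W tumor 3 just above the highest of the tumors that were not necrotic, and IR-3W tumor 2 among them.

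Runs that passed only in another setting, such as with a tumor left out or with tumors of 1 rat averaged, were looked at after their values had been seen. At chr6:41874699-41875383, a run of 7 probes, the mean log2 ratio was 2.29 in IR-3W tumor 1, 2.02 in IR-3W tumor 2 and 0.16 in IR-7W tumor 3. The other irradiated tumors had 0.02, 0.38 and 0.89 at the lowest, median and highest, the glands 0.11 to 0.32 and the spontaneous tumors -0.18 to 0.54. Both necrotic IR-3W tumors were therefore more than 1 log2 unit above every other tissue of the series, while the necrotic IR-7W tumor lay among the rest. The difference was 1.12 ± 0.31 (SE, adjusted p = 0.683) over the 3 necrotic tumors and 1.79 ± 0.17 (SE, adjusted p = 0.000796) without IR-7W tumor 3, in limma. The latter leaves out the necrotic tumor that did not stand apart, so it is not evidence of a difference. With slide as a block and all tumors the difference was 1.07 ± 0.27 (SE, adjusted p = 0.925 in limma). Cy3 was within the range of the other tumors in IR-3W tumor 1 and in IR-3W tumor 2 (-0.01 and 0.02 against -0.07 to 0.14), so the signal lay in the captured DNA. The second run that passed without IR-7W tumor 3, of 6 probes at chr5:171445707-171446113, had 3.30, 2.61 and 0.74 in the necrotic tumors and 0.72, 1.24 and 1.90 in the others.

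At chr6:93208181-93208612, a run of 3 probes, all 3 necrotic tumors were high, with 3.13, 2.36 and 2.21, and 1 tumor that was not necrotic joined them. IR-3W tumor 6 had 2.56, and the remaining 10 irradiated tumors 0.43 to 1.25. The glands had 0.74 to 0.88 and the spontaneous tumors 0.34 to 1.12, so 4 of the 24 tissues stood apart from the rest. IR-3W tumor 6 shared its slide with IR-3W tumor 1. The slide mates of IR-3W tumor 2 and IR-7W tumor 3 had 0.97 and 0.43, the latter being IR-3W tumor 7 from the same rat as IR-3W tumor 6. The difference was 1.53 ± 0.33 (SE, adjusted p = 0.683 in limma) with all tumors, 1.68 ± 0.19 (adjusted p = 0.00674 in limma) without IR-3W tumor 6, and 1.58 ± 0.19 (adjusted p = 0.0349 in limma) with tumors of 1 rat averaged. With slide as a block it was 1.25 ± 0.24 (SE, adjusted p = 0.925 in limma), and 0.96 ± 0.44 (SE, adjusted p = 0.903 in limma) on scaled arrays. Cy3 differed by 0.06 and Cy5 by 1.62.

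**Figure D5:**
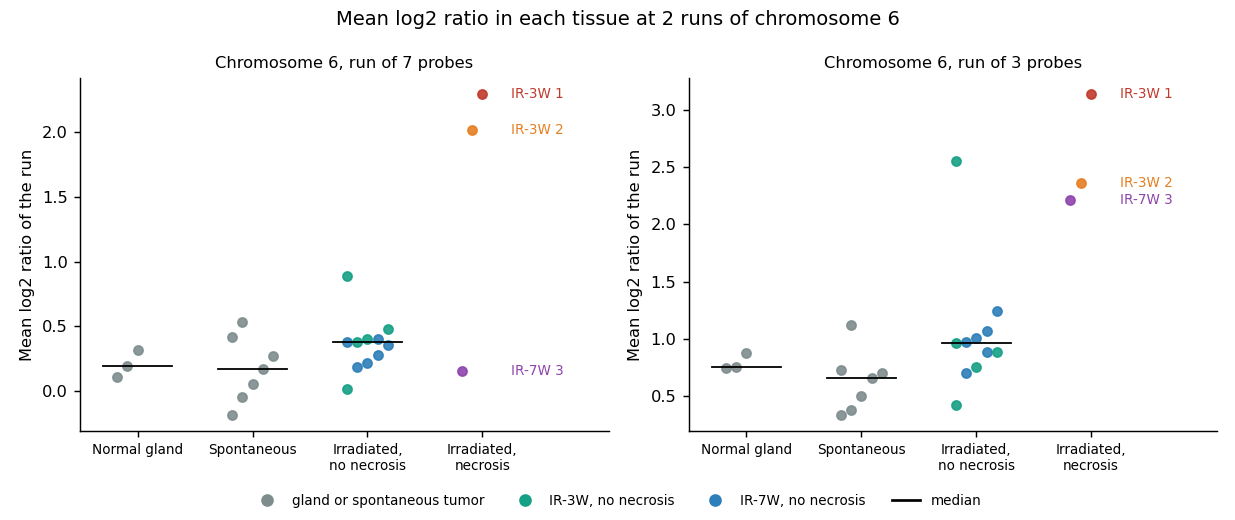
Mean log2 ratio of each tissue at the run of 7 probes (left) and the run of 3 probes (right) of chromosome 6, in 4 groups, with the median of the groups that are not necrotic as a line. On the left IR-3W tumors 1 and 2 lie at 2.29 and 2.02 and IR-7W tumor 3 at 0.16; on the right the 3 necrotic tumors lie at 2.21 to 3.13 together with IR-3W tumor 6 at 2.56.

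Other runs that passed in another setting differed in which necrotic tumors stood apart. At chr1:41266186-41266806, a run of 8 probes, IR-7W tumor 3 had 1.54, while IR-3W tumors 1 and 2 had -0.18 and 0.05 and the other 11 irradiated tumors -0.18 to 0.04. This run was among 2 that passed in ER positive tumors alone, where IR-7W tumor 3 was the one necrotic tumor against 8. At chr3:145025063-145025931, of 12 probes, the order was 2.80, 1.71 and 1.20 against 0.28 to 1.34, and at chr17:39024632-39025774, of 7 probes, 4.26, 3.11 and 1.34 against 1.09 to 2.62. These belonged to 7 runs that passed on scaled arrays without IR-7W tumor 3, all 7 with higher values in the necrotic IR-3W tumors. Another of the 7, of 5 probes at chr19:35526268-35526878, had all 3 necrotic tumors above the others as measured, with 3.97, 2.52 and 1.94 against 0.56 to 1.81 (difference 1.39 ± 0.33, SE, adjusted p = 0.683 in limma with all tumors). The one run that passed with lower values, without IR-7W tumor 6, was a single probe at chr4:156903902-156903946. It had 1.23, 2.51 and 0.98 in the necrotic tumors, 1.97 in IR-7W tumor 6 and up to 4.30 in the others, and the Cy3 mean differed by -3.33 there, beside -5.38 in Cy5.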

How the data were processed

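The intensity values in the deposited scanner files were made by the authors with Agilent Feature Extraction 10.7.3.1, with background subtraction, spatial detrending and a linear dye factor. The log2 ratios of the deposited series matrix were used as an alternative, and the deposited log10 ratios of the scanner software only as a check. From the processed signals, log2 of Cy5 over Cy3 was taken, centered on the autosomal median of each array, with outlier spots (0 to 20 per irradiated tumor) left out. Spots were called well above background by the authors' software. Only 1 array per tumor sets the precision.

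Probes and run means were fitted with limma 3.58.1 in R 4.3.3, on the 14 irradiated tumors with no covariate, with Benjamini-Hochberg adjustment over all features. Array measures were compared by two-sided exact permutation (smallest p 0.00275), with Python 3.11.15 and numpy 2.4.6. The fit was tested on simulated data of 200 changed features, with probes drawn independently. Named runs were, in each direction, the 10 of 3 or more probes with the smallest p whose groups did not overlap as measured and on arrays scaled to one median absolute deviation. Of each, the probe with the smallest p is kept in the tables and not described. Planned gene lists and cell type markers could not be matched to probes. Tumors, lists, measures and tests were chosen with earlier results of these data known. Necrosis and ER status come from the study's tumor table. The p-values of the tests treat tumors of 1 rat as separate. Alternatives were scaling, covariates, blocks, filters, other tests and each tumor left out.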

Additional observations from a re-analysis of the deposited data

Results flagged for a closer look

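In groups of 7 tumors irradiated at the same age, 7 of 66 sets of values held a tumor farther from its group than Dixon's 95% critical value allows (0.568 of the range for 7 samples), where chance flags about 1 set in 20. IR-3W tumor 1 was flagged at the 95th percentile of the log2 ratio, 5.82 against 3.36 to 3.76 in the other IR-3W tumors, at the probes most methylated in glands, 2.79 against 1.54 to 1.82, and in the X-chromosome median, 4.96 against 2.56 to 3.02. The rule was applied to values as measured only. On scaled arrays IR-3W tumor 1 had 4.56 against at most 4.39, 2.18 against at most 2.16 and 3.89 against at most 3.55. IR-7W tumor 3 was flagged in the X-chromosome median, 0.22 against 2.42 to 3.20. It was also flagged in the run of 7 probes on chromosome 7 with higher values in necrotic tumors, 0.14 against -0.25 to -0.14, and in the run of 8 probes on chromosome 4, -0.62 against 0.20 to 0.52. Those runs had been chosen for their separation. The spread of the Cy3 chromosome medians flagged a tumor without recorded necrosis, IR-7W tumor 6, at 0.081 against 0.016 to 0.023.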

How the results depend on the processing

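The count of probes past the adjusted threshold, 0, stayed at 0 in 20 of 25 alternatives that kept all tumors of the groups they used. It was 1 on scaled arrays, 1 on scaled arrays with age as a term (a setting chosen after seeing the data), 1 against all 18 tumors with no necrosis recorded, 1 with limma's robust and trend options and 64 in ER positive tumors alone, where a single necrotic tumor is assumed to vary like the others. Leaving out each tumor gave 0 to 35 probes. The count of runs, 0, stayed so in 25 of 27, became 1 with tumors of 1 rat averaged and 2 in ER positive tumors alone, and ranged from 0 to 7 with a tumor left out, the highest on scaled arrays without IR-7W tumor 3. The interaction gave 0 to 10480 probes with a necrotic IR-3W tumor left out. Replicate numbers did not pair the tumors (correlations of -0.266 to 0.271 between same-numbered tumors, 0 of 7 best with their own number), and with the replicate block 0 probes, 0 runs and 0 array measures were called. Of the array measures 0 passed in any alternative.

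Differences of array measures that changed sign were all far from the threshold. With medians in place of means they were -0.20 (95th percentile), -0.0205, 0.0072 and -0.0819 (lowest, middle and highest tertile in glands), 0.037 (slope) and 0.000638 (SD of Cy3 chromosome medians). Against the spontaneous tumors they were -0.0723 (lowest tertile), 0.00475 (SD of Cy3 chromosome medians) and 0.00896 (X chromosome). In IR-3W alone they were 0.0395 (middle tertile) and 0.86 (X chromosome), with the replicate block -0.0187 (lowest tertile), and within the 3 slides -0.0544 (lowest tertile), 0.0704 (slope), 0.130 percentage points (Cy3 above background) and 0.00441 (SD of Cy3 chromosome medians). With a tumor left out the ranges were -0.0429 to 0.117 (median absolute deviation), -0.18 to 1.05 (95th percentile), -0.118 to 0.118, -0.0349 to 0.0129 and -0.128 to 0.497 (lowest, middle and highest tertile), -0.122 to 0.0662 (slope), -0.00975 to 0.00203 (SD of Cy3 chromosome medians) and -1.45 to 0.92 (X chromosome). The sign of each named run was kept except at probes above background in both channels on all arrays, where the runs on chromosome 5 (105659486) and chromosome 1 (208034737) had -0.0235 and -0.0698. Named runs could not be given with other gaps between probes, since the runs then change. The causes were not tested.

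Only 3 necrotic tumors, with blank entries for the rest, 2 ages and few ER positive necrotic tumors, limit every comparison, and necrosis cannot be told apart from other traits of those 3 tumors.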
